A study of Mus musculus with 6 samples.

Results

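Kinesin motor genes were followed through RNA labelled as hippocampus from aged mice that received dihydrotestosterone (DHT), the potent androgen made from testosterone, or corn oil. The members were all mouse genes whose symbol is Kif or Kifc followed by a number, with or without a family letter. The reference gene table held 43 such symbols, and 39 of them had a gene value among the 32348 gene identifiers of the series. In 34 of these, some library was above 0, and 20 reached the mean of 0.5 FPKM (fragments per kb and M reads) that was asked for a test. Kif28, Kif2b, Kifc5b and Kifc5c-ps had no value row. Kif12, Kif2c, Kif4, Kif14 and Kif18b were listed at 0 in all 6 libraries, and an exact 0 in such values can be a failed estimate. Members also hosted 31 of the 11895 circular RNAs (circRNAs) listed, from 12 of 3766 host genes.

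All libraries are labelled as hippocampus of male C57BL/6 mice aged 14 months, although striatal marker genes were far above those of hippocampal fields in each of them. In 3 libraries the mice had received DHT under the skin, once a day for 14 days, and in 3 libraries corn oil in its place. Whether a library holds 1 animal or several is not in the labels, and p-values therefore reflect how these libraries scatter, some of which may be technical. Libraries are numbered 1 to 3 within a group for naming only.

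Kinesins are motor proteins that use ATP to move along microtubules or to take them apart. Most families walk towards the plus end and carry vesicles, mitochondria and RNA down the axon or into dendrites, while the kinesin-14 family has minus-end members. In neurons, which have left the cell cycle, the transport families are abundant and those that build the mitotic spindle are used mainly before the last division. Several kinesin genes have small alternative exons and alternative starts, and long genes with many exons can also give circles, in which a downstream exon end is joined back to an upstream exon start.

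The promoters of members on which the results turn are shown first, because the members differ in base composition and in the letters before their starts. Kif1a also has a pair of RefSeq starts. Each run is the 150 bases before a RefSeq start in build GRCm38.p6, read 5′ to 3′ on the gene's strand, and ends at the base before the start. For Kif1a on the minus strand these are chr1:93101875-93102024 for the upstream and chr1:93082481-93082630 for the downstream start. For Kif17 (plus strand) it is chr4:138262101-138262250, and for Kif5c (plus strand) chr2:49619136-49619285. For Kif16b (minus strand) it is chr2:142901465-142901614, for Kif1c (plus strand) chr11:70700398-70700547 and for Kif13a (minus strand) chr13:46929719-46929868. For the mitotic motors it is chr19:37376232-37376381 (Kif11, plus strand) and chr9:61946800-61946949 (Kif23, minus strand). Capitals mark the letters TATAAA (the core of the TATA box), CCAAT (the box of that name), GGGCGG (the GC box), TTTGAA (the cell cycle element CHR) and AGAACA (an androgen receptor half-site) on either strand, and no match overlapped another in these promoters. The capitals that open the Kif16b run end a match that began before it.
Kif1a upstream: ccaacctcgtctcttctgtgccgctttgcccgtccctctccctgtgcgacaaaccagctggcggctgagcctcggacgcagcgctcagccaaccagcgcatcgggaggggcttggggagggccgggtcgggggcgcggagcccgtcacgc
Kif1a downstream: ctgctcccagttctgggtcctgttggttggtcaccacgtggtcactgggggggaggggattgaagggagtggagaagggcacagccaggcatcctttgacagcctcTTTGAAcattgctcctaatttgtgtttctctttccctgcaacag
Kif17: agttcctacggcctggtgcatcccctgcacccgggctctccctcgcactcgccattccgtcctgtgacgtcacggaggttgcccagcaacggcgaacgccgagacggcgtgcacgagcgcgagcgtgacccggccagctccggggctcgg
Kif5c: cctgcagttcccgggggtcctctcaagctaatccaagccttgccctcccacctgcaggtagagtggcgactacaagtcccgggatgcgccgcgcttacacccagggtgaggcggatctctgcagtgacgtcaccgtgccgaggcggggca
Kif16b: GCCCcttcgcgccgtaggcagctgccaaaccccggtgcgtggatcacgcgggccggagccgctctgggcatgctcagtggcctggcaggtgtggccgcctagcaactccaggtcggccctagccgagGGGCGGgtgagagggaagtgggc
Kif1c: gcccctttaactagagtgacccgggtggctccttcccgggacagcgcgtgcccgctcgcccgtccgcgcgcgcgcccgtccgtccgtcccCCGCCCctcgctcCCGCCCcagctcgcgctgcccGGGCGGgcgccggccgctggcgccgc
Kif13a: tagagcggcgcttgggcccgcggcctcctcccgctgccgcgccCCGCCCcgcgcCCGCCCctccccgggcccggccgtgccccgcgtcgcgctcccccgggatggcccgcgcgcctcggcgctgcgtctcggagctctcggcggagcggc
Kif11: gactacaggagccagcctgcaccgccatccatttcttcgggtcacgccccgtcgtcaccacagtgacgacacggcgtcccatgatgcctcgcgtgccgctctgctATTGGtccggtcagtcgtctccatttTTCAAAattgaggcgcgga
Kif23: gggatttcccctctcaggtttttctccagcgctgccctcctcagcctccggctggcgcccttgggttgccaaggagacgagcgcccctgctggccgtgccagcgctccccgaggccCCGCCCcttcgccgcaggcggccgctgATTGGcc

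The Kif1a runs differed in composition. Over the 250 bases before each start, G and C made up 69.2% at the upstream and 50.8% at the downstream start. The downstream run ended in a stretch rich in T and C followed by cag, the letters that also precede exons at splice acceptors. An end in cag was found in 3 of 37 kinesin promoters (also in Kif27 and Kif2c) and in 2.38% of all 32851 promoters in the table. The downstream Kif1a run held the letters TTTGAA, which stood in 8 of 37 kinesin promoters and in 15.99% of all promoters over 250 bases. Kif13a had the highest G and C content of the 37, at 85.6%, and Kif1c reached 70.8%. The median was 64% over kinesin promoters and 52.4% over all promoters.

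The Kif11 run held both a CCAAT box and the TTTGAA letters, and the Kif23 run a CCAAT box and a GC box. The GC box stood in 21 of 37 kinesin promoters against 32.7% of all, the CCAAT box in 17 against 33.8%, and the TATA box core in 5 against 12.4%. The androgen receptor half-site stood in 3 of 37 against 16.1% of all, in Kif3c, Kif5c and Kif23. The table matched 33 of the 43 symbols. A match in letters is a description of the window and not a site in use.

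The gene value of a member is the larger of its first-exon and last-exon sums in FPKM, so it is a level per length that can be compared between genes. The 4 highest members, Kif5a, Kif1a, Kif5c and Kif1b, made up 71.4% of the summed kinesin level. Kif5a, the neuronal heavy chain of kinesin-1, stood above 99.8% of all tested genes. The order then ran over Kifc2, Kif17, Kif3a, Kif21a, Kif3c, Kif5b, Kif21b, Kif3b, Kif2a, Kif1c, Kifc3, Kif13b, Kif13a, Kif16b, Kif26b and Kif9. Kif17, Kif3a, Kif21a and Kif3c had means from 16.3 to 17.6 FPKM, and their libraries overlapped. The value and place of Kif17 include a first exon that lies before its RefSeq bounds.

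**Figure D1:**
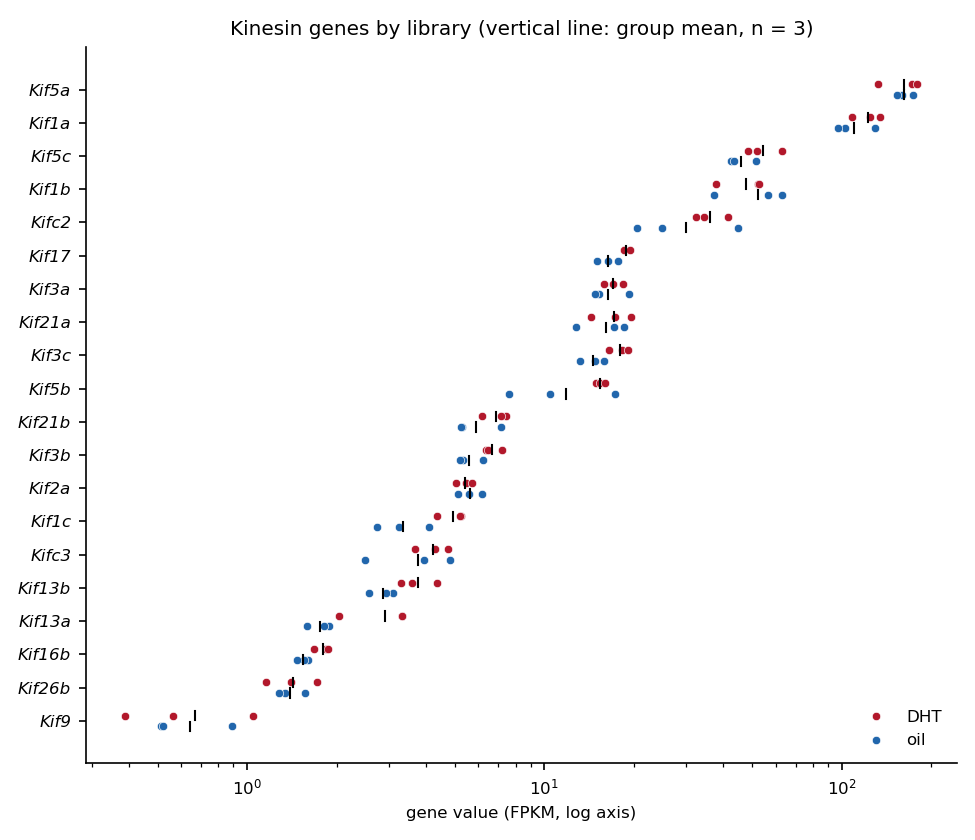
Gene values of the 20 tested kinesin genes in FPKM on a log axis, with 1 point per library (red for DHT, blue for oil) and a vertical line at each group mean (n = 3). The order runs from Kif5a, at 133 to 180 FPKM, down to Kif9, at 0.390 to 1.05 FPKM, and the groups overlap in 13 of the 20 genes.

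None of the 20 tested kinesins passed an adjusted p of 0.05 between DHT and oil (limma, Benjamini-Hochberg over 11368 genes), where 2 of all genes did (0.0176%). The smallest adjusted p of a member was 0.652. Fold changes were small: on the log2(FPKM + 0.5) scale the members ran from −0.11 (Kif1b) to 0.56 (Kif13a). Their direction was mostly upward, with 17 higher and 3 lower in DHT and a median of 0.19, beside 63.6% higher and a median of 0.07 over all genes tested. That median was 0.30 without oil 1 and 0.11 with no filter on level, where 24 of 34 members were higher and 10 lower. An unadjusted p under 0.05 was reached by 4 members, all higher in DHT, which is 4 of 20 against 5.79% of all genes in that direction.

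The deposited values themselves were shifted between the groups. Summed over all genes they were 95516 ± 602 FPKM in DHT and 88015 ± 1371 in oil (SD, n = 3, exact two-sided permutation p = 0.1, the smallest that 3 against 3 allows), and the median log2 level of tested genes was 0.06 higher in DHT. With each library centred on its median, 15 kinesins were higher and 5 lower, their median was 0.13, and 2 had an unadjusted p under 0.05, against 3.16% of all genes in that direction. The kinesin sum was 550 ± 45.6 FPKM in DHT and 510 ± 64.8 in oil (exact two-sided permutation p = 0.5). Per 1000 FPKM of all gene values it was 5.75 ± 0.448 in DHT and 5.79 ± 0.641 in oil (exact permutation p = 0.9), with the direction turned. In bulk tissue, fewer cells of a type and less RNA per cell cannot be told apart.

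**Figure D2:**
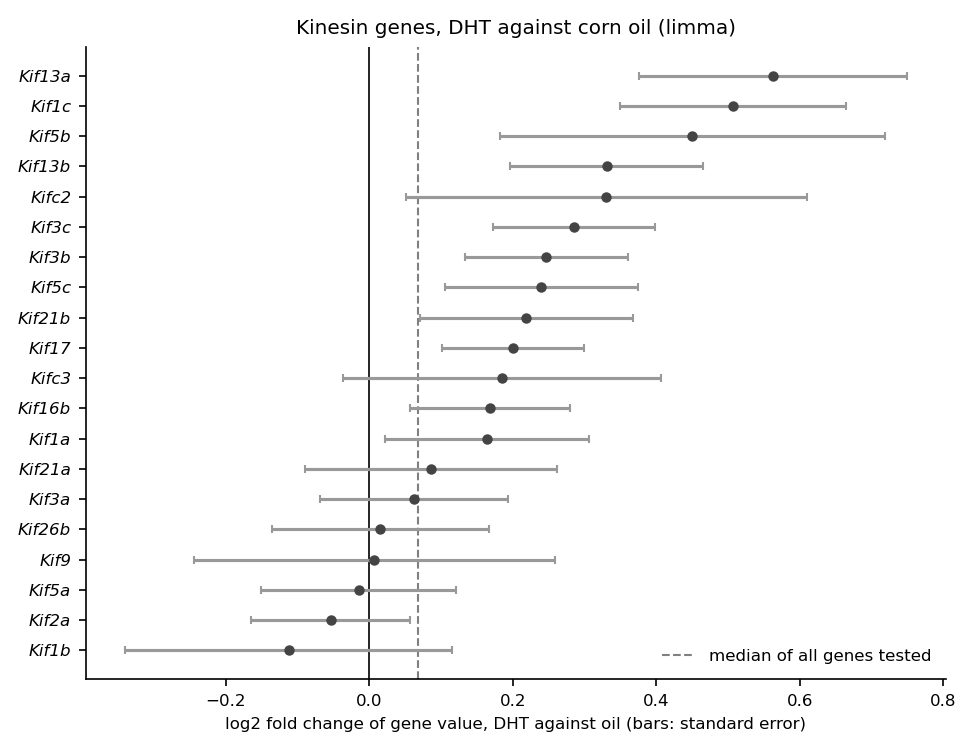
Log2 fold change of the gene value (DHT against oil, limma on log2(FPKM + 0.5)) with its standard error for the 20 tested kinesin genes, beside the median of all genes tested (dashed, 0.07). Most members lie to the right of 0, from −0.11 for Kif1b to 0.56 for Kif13a, and none passed the adjusted threshold.

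In 7 of the 20 members every DHT library lay above every oil library, and in 0 the reverse, where 12.0% and 3.15% of all tested genes did so. With libraries centred, 6 of the 7 were still apart (without Kif3b), against 6.97% of all genes. The 7 were Kif1c, Kif13a, Kif13b and Kif16b of the kinesin-3 family and Kif3b, Kif3c and Kif17 of the kinesin-2 family. The value of Kif17 rests mostly on a first exon outside its RefSeq bounds, and its groups overlapped at the RefSeq start alone. Leaving out 1 library at a time moved the number of kinesins with an unadjusted p under 0.05 from 4 to between 1 and 7. It was 7 without oil 1, 3 without DHT 2, 2 without DHT 1 or oil 2, and 1 without DHT 3 or oil 3. All of these were higher in DHT. In that direction such a p was reached by 703 of 11368 genes without oil 1 and by 510 to 590 without any other single library.

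The kinesin-3 family holds fast transport motors, which carry synaptic vesicle precursors (Kif1a, Kif1b), Golgi and dense-core vesicles (Kif1c) and endosomes (Kif13a, Kif13b, Kif16b). Of its 7 members, 6 were tested, 5 of these were higher and 1 lower in DHT (median log2 fold change 0.25). Kif14, which acts in cytokinesis, was listed at 0. Kif1c stood at 5.26, 4.37 and 5.2 FPKM in DHT 1 to 3 and at 2.73, 4.09 and 3.25 in oil 1 to 3. The DHT libraries were all higher, and oil 2 came close to DHT 2. The log2 fold change was 0.51 (SE 0.16, limma adjusted p = 0.652).

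Kif13a stood at 2.04, 3.33 and 3.33 FPKM in DHT and at 1.89, 1.82 and 1.59 in oil. Here DHT 2 and DHT 3 were clearly high, while DHT 1 was close to the oil libraries. Its log2 fold change was 0.56 (SE 0.19, limma adjusted p = 0.656). By its main first exon alone DHT 1, at 1.53 FPKM, fell below all oil libraries. Kif13b stood at 3.58, 3.30 and 4.35 FPKM in DHT and at 3.11, 2.93 and 2.56 in oil, with a log2 fold change of 0.33 (SE 0.13, limma adjusted p = 0.658).

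Kif16b, which positions early endosomes, stood at 1.69, 1.84 and 1.87 FPKM in DHT and at 1.60, 1.56 and 1.47 in oil. The groups were apart, narrowly between DHT 1 and oil 1, and the log2 fold change was 0.17 (SE 0.11, limma adjusted p = 0.721). By the last exon of Kif16b alone the groups overlapped, at 1.51, 1.84 and 1.55 FPKM in DHT and 1.60, 1.56 and 1.47 in oil. Kif1a stood at 108, 124 and 135 FPKM in DHT and at 129, 102 and 97.6 in oil, with oil 1 inside the DHT range. Kif1b stood at 37.8, 52.5 and 52.9 FPKM in DHT and at 63.1, 56.4 and 37.2 in oil, so the lowest library of each group was alike and the groups overlapped throughout.

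Kinesin-2 motors work as Kif3a with Kif3b or Kif3c, joined by an accessory subunit, or as the Kif17 homodimer, which carries NMDA receptor vesicles in dendrites. All 4 members were tested and all 4 were higher in DHT, with a median log2 fold change of 0.22. Kif3c, the neuronal partner of Kif3a, stood at 18.2, 16.5 and 19.1 FPKM in DHT and at 15.9, 13.2 and 14.8 in oil. The lowest DHT library was just above the highest oil library, and the log2 fold change was 0.28 (SE 0.11, limma adjusted p = 0.658).

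Kif17 stood at 18.6, 18.5 and 19.4 FPKM in DHT and at 17.6, 15.1 and 16.4 in oil, with a log2 fold change of 0.20 (SE 0.10, limma adjusted p = 0.671). The DHT libraries lay close together and the oil libraries spread more widely. Most of this level came from a first exon that lies before the RefSeq bounds of Kif17. By the first exons at the RefSeq start alone Kif17 stood at 5.81, 4.06 and 6.22 FPKM in DHT. In oil these exons gave 5.56, 5.45 and 4.77 FPKM, and the groups overlapped. Kif3b stood at 7.20, 6.38 and 6.49 FPKM in DHT and at 6.21, 5.31 and 5.18 in oil, with a log2 fold change of 0.25 (SE 0.11, limma adjusted p = 0.658). Kif3a, their shared partner, stood at 17.0, 18.3 and 15.8 FPKM in DHT and at 15.2, 19.2 and 14.8 in oil, and its groups overlapped (log2 fold change 0.06, SE 0.13).

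Kinesin-1 is the classical axonal motor, a dimer of heavy chains (Kif5a, Kif5b or Kif5c) with light chains. Kif5a stood at 133, 173 and 180 FPKM in DHT and at 174, 159 and 154 in oil, so DHT held both the lowest and the highest library. Kif5c stood at 48.6, 62.8 and 51.9 FPKM in DHT and at 51.7, 42.6 and 43.5 in oil (log2 fold change 0.24, SE 0.13), with oil 1 above DHT 1. The DHT 2 value included 22.3 FPKM of a shorter first-exon form that was listed at 0 in every other library. By the main first exon alone DHT 2 stood at 40.4 FPKM, the lowest library. Group means of that exon were 46.9 ± 5.83 FPKM in DHT and 45.8 ± 5.04 in oil (SD, n = 3). Kif5b, the heavy chain used in all tissues, stood at 14.9, 15.4 and 15.96 FPKM in DHT and at 17.3, 7.59 and 10.5 in oil. Its DHT libraries lay close together, within the wide oil range (log2 fold change 0.45, SE 0.27).

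Of the kinesin-14 family, Kifc2, a neuronal member, stood at 41.3, 32.3 and 34.5 FPKM in DHT and at 44.7, 20.6 and 24.9 in oil. Kifc3 had means of 4.22 ± 0.532 and 3.75 ± 1.18 FPKM (SD, n = 3). The remaining member, the spindle motor Kifc1, reached 0.340 FPKM at most.

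Among the kinesin-4 motors that slow microtubule growth, Kif21a stood at 19.6, 17.3 and 14.3 FPKM in DHT and at 18.5, 12.8 and 17.1 in oil. Kif21b had means of 6.90 ± 0.665 and 5.90 ± 1.08 FPKM. The ciliary signalling member Kif7 stayed at or under 0.536 FPKM. Kif2a, the kinesin-13 that removes tubulin from microtubule ends, had means of 5.40 ± 0.320 FPKM in DHT and 5.63 ± 0.527 in oil and was among the 3 members with a lower mean in DHT. All of these groups overlapped.

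The remaining families were near the limit of what was listed. Kif26b of kinesin-11, a family with an atypical motor domain, had means of 1.43 ± 0.277 and 1.40 ± 0.1501 FPKM, and Kif26a stood between 0.266 and 0.559. Kif9, an axonemal kinesin-9, had means of 0.666 ± 0.340 and 0.642 ± 0.216 FPKM, and its relative Kif6 of 0.342 ± 0.181 and 0.582 ± 0.187. In kinesin-8, Kif19a, a regulator of cilium length, had means of 0.262 and 0.313 FPKM. It stood at 0.281, 0.211 and 0.296 FPKM in DHT and at 0.319, 0.315 and 0.305 in oil. Every DHT library lay below every oil library, at a level under that asked for a test.

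The spindle motors gave almost no signal. Kif11 (kinesin-5, which pushes spindle poles apart) was at most 0.243 FPKM, and Kif23 and Kif20b of kinesin-6 at most 0.242 and 0.357. Kif18a (kinesin-8), Kif15 (kinesin-12), Kif22 (kinesin-10) and Kif20a (kinesin-6) were at most 0.328, 0.133, 0.156 and 0.169 FPKM, and each of them was at or near 0 in some libraries. Of 8 marker genes of dividing cells 0 reached the test, their sum was 0.398 to 0.506 FPKM in DHT and 0.425 to 0.580 in oil, and Bub1, Ccnb1, Cdk1 and Mki67 were listed at 0 throughout.

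Markers of the tissue were read beside these levels. Neuronal markers summed to 731 to 940 FPKM in DHT and 699 to 860 in oil, and 2 of 6 were higher and 4 lower in DHT. Of these Slc17a7, the vesicular glutamate transporter of excitatory neurons, had an unadjusted p under 0.05, at 66.5, 51.4 and 90.5 FPKM in DHT and 35.7, 42.2 and 55.2 in oil (log2 fold change 0.63, SE 0.24, limma adjusted p = 0.658). Hippocampal field markers summed to 13.2 to 34.6 FPKM in DHT and 15.3 to 31.0 in oil with Dsp at 0, whereas striatal markers summed to 185 to 349 and 266 to 297 with Drd1 at 0 and Penk at 75.2 FPKM or more in every library, so markers of the striatum, a neighbouring region, were far above those of the labelled one. Markers of oligodendrocytes summed to 394 to 473 FPKM in DHT and 337 to 410 in oil, with all 7 tested markers higher in DHT. Markers of microglia summed to 44.5 to 63.7 and 38.0 to 59.4, with all 5 tested markers higher, beside 63.6% of all genes, and those of astrocytes to 241 to 270 and 250 to 261. Choroid plexus markers summed to 1.29, 2.15 and 31.3 FPKM in DHT and to 80.2, 14.1 and 3.52 in oil. The part of these cell types in the kinesin levels was not tested.

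Other genes of microtubule transport were taken as whole lists, to be read against all tested genes, of which 63.6% were higher in DHT, 5.79% had an unadjusted p under 0.05 in the higher and 1.55% in the lower direction, and 12.0% had every DHT above every oil library. Of 22 tested light chains and cargo adaptors 0 passed the adjusted threshold, 19 were higher and 3 lower in DHT, with a median log2 fold change of 0.16. An unadjusted p under 0.05 was reached by 3 of the 22, the light chain gene Klc2 (log2 fold change 0.35, SE 0.12), the lysosome adaptor Arl8a (0.32, SE 0.12) and the JNK scaffold Mapk8ip1 (0.24, SE 0.10), and none of the 3 had an oil library as high as its lowest DHT library. The light chain gene Klc1 went the other way, at 48.4, 38.6 and 68.1 FPKM in DHT and 67.3, 81.9 and 63.5 in oil (log2 fold change −0.48, SE 0.21, limma adjusted p = 0.658). Its groups overlapped through DHT 3. Clstn1, a vesicle membrane protein that binds light chains, was the most abundant of the list at 106 to 163 FPKM.

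Of 27 tested genes of dynein and dynactin, the minus-end motor and its activator, 0 passed the threshold, 19 were higher and 8 lower, with a median of 0.11. Dync1i1, the neuronal intermediate chain, stood at 16.03, 15.1 and 13.2 FPKM in DHT and 11.7, 10.6 and 11.8 in oil (log2 fold change 0.36, SE 0.11). The heavy chain Dync1h1 stood at 51.6, 42.6 and 44.9 FPKM in DHT and 54.9, 44.2 and 40.7 in oil, with no clear order of the groups. Of the other abundant members, Dynll2 had a log2 fold change of 0.35 (SE 0.15) and Pafah1b1 of −0.06 (SE 0.09).

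Of 30 tested microtubule proteins 0 passed the threshold, 18 were higher and 12 lower, with a median of 0.08. An unadjusted p under 0.05 was reached by 4 of the 30 in the higher direction (5.79% of all genes) and by 2 in the lower (1.55%). Tuba1a, a neuronal alpha tubulin and the first of the 4, stood at 199, 265 and 256 FPKM in DHT and 175, 180 and 155 in oil (log2 fold change 0.49, SE 0.14, limma adjusted p = 0.652). Its lowest DHT library was above its highest oil library. The other 3 were the beta tubulins Tubb4a (0.31, SE 0.09) and Tubb5 (0.25, SE 0.08) and the axonal track protein Mapt (0.51, SE 0.18). The 2 in the lower direction were Stmn1, which binds free tubulin (−0.26, SE 0.11), and Dcx, which marks young neurons (−0.57, SE 0.17). Map2, the dendritic track protein, had a log2 fold change of 0.20 (SE 0.09).

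First-exon estimates were compared between the starts of a gene. Kif1a, on the minus strand of chromosome 1, had first exons 19530 bases apart, beginning at 93101951 and at 93082421. The upstream one gave 40.7, 23.7 and 49.7 FPKM in DHT and 43.0, 35.9 and 27.6 in oil. The downstream one, 59 bases past the RefSeq start whose promoter run ends in cag, gave 67.1, 100 and 85.0 FPKM in DHT and 85.9, 66.2 and 69.8 in oil. Thus the downstream first exon held 62.3%, 80.9% and 63.1% of the pair in DHT and 66.7%, 64.8% and 71.6% in oil, and DHT 2 stood apart as the highest. Whether that exon marks a start in use was not tested. Group means were 68.8% ± 10.5 and 67.7% ± 3.52 (SD, n = 3, exact two-sided permutation p = 1).

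The locus assigned to Kif17 had first exons 11829 bases apart on the plus strand of chromosome 4, beginning at 138250403 and at 138262232. Only the downstream one lay at a RefSeq start in the table. The upstream one lies wholly before the RefSeq bounds of the gene, 138262251 to 138301973. A last exon of the locus, 138255552 to 138255690, lies before them too. Whether these exons belong to Kif17 was not tested. The upstream exon gave 11.4, 14.0 and 12.1 FPKM in DHT and 11.99, 9.24 and 11.2 in oil. The downstream exons held 33.8%, 22.5% and 34.1% of the sum in DHT and 31.7%, 37.1% and 29.9% in oil (exact two-sided permutation p = 0.7). DHT 2 was again the library farthest from the rest, here toward the upstream exon. Kif5c had 1 main first exon, beginning at 49619298 and 12 bases past its RefSeq start, at 40.4 to 51.8 FPKM, and a shorter form of that exon was listed at 22.3 FPKM in DHT 2 and at 0 in the other 5 libraries.

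**Figure D3:**
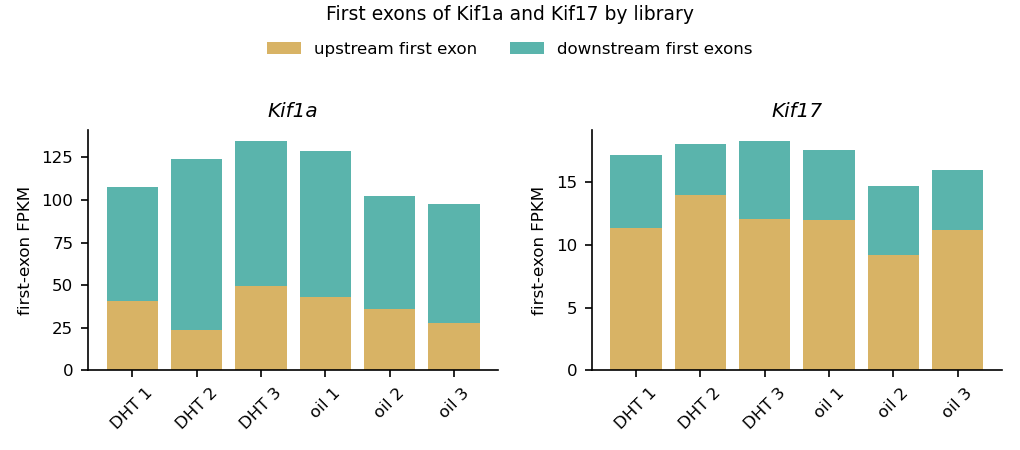
First-exon FPKM of Kif1a (left) and Kif17 (right) in each library, stacked as the upstream first exon and the downstream first exons. In Kif1a the downstream exon holds the larger share of every bar, 62.3% to 80.9%, and in Kif17 the smaller, 22.5% to 37.1%. The upstream exon of the Kif17 locus lies before the RefSeq bounds of the gene.

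First-exon and last-exon sums often disagreed. They were nearly equal for Kif5a, and the ratio of last-exon to first-exon sums over the 6 libraries was 0.999 for Kifc2, 0.992 for Kif2a and 1.06 for Kif1b. For Kif1a it was 0.0276 (3.21 against 116 FPKM), for Kif17 0.0334, for Kif3c 0.0146 and for Kif21b 0.0599, and for Kif3a the last exon was listed at 0. The reverse held for Kif5b, with 13.6 FPKM in last exons and 0.483 in first exons. So the levels of Kif1a, Kif17, Kif3a, Kif3c and Kif21b rest on first-exon estimates and that of Kif5b on last-exon estimates. With first-exon sums only, 1 of 19 tested kinesins had an unadjusted p under 0.05, and with last-exon sums only 1 of 16. Both were higher in DHT. In that direction 649 of 11013 genes had such a p by first-exon sums and 520 of 8154 by last-exon sums.

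Splicing was read as pairs of events, in which ON and OFF are the FPKM of assembled transcripts that include or leave out an exon, or that retain or splice an intron. Members gave 116 tested pairs (mean ON + OFF of at least 1 FPKM) out of 30110, and 0 of them passed an adjusted p of 0.05, where 0.0266% of all pairs did (limma on log2((ON + 0.5)/(OFF + 0.5))). An unadjusted p under 0.05 was reached by 10 of the 116, 7 toward ON and 3 toward OFF in DHT, against 4.8% of all pairs. Groups did not overlap in percent ON in 12 of the 116 against 4.78% of all pairs. Many pairs of a gene share the same assembled transcripts, so these are not independent.

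Percent ON varied widely over the libraries, both within and between groups. Its range over the 6 libraries was above 50 points in 33 of the 116 kinesin pairs (28.4%) and in 13.3% of all pairs. Most of the tested pairs came from Kif21a (23), Kif3a (21) and Kif17 (15). The number of kinesin pairs with an unadjusted p under 0.05 went from 10 to 18 without oil 3, and lay between 8 and 15 without any other single library. Over all 30110 pairs it went from 1445 to 1489 without oil 3, and lay between 1394 and 1642 without any other.

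Kif21b had the pair with the smallest p, an intron of 283 bases at chr1:136171306-136171588 (plus strand). Its retained form was listed at 1.01, 0.593 and 0.595 FPKM in DHT and at 0 in the 3 oil libraries, beside a spliced form of 4.67 to 5.37 FPKM in all. Percent ON was thus 16.2, 11.3 and 10.7 in DHT and 0 in oil (log2 ratio change 1.32, SE 0.22, limma adjusted p = 0.490). All DHT libraries listed the retained form and no oil library did.

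Kif3a had an exon of 72 bases at chr11:53588689-53588760 (plus strand) whose ON form was listed at 1.77, 3.50 and 1.27 FPKM in DHT and at 0 in oil. Percent ON was 10.7, 26.0 and 9.82 in DHT, and the OFF form dominated in every library at 7.71 to 14.7 FPKM (log2 ratio change 2.19, SE 0.47, limma adjusted p = 0.725). A 9-base exon of Kif3a at chr11:53590717-53590725 went the other way, with percent ON of 1.499, 29.1 and 2.51 in DHT and 100, 83.2 and 100 in oil. Its ON + OFF sum ran from 0.0225 FPKM in oil 3 to 7.80 in oil 2, so oil 3 rests on almost no signal (log2 ratio change −3.19, SE 0.72, limma adjusted p = 0.753). In the DHT libraries the OFF form of the 9-base exon carried the same estimates as the ON form of the 72-base exon, while in oil 2 it was 1.31 FPKM and the 72-base ON form 0. An XSKIP and an MIR pair of Kif3a, with other ends and several introns respectively, used the 72-base ON estimates too and had no signal in 2 oil libraries.

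Kif21a had small exons that share a boundary at 90948324 on chromosome 15 (minus strand). The 15-base form, chr15:90948324-90948338, had percent ON of 99.7, 71.8 and 99.8 in DHT and 48.6, 8.27 and 55.9 in oil (log2 ratio change 2.85, SE 0.84, limma adjusted p = 0.914). The 12-base form, chr15:90948324-90948335, had 99.8, 73.2 and 99.9 in DHT and 17.9, 56.5 and 72.9 in oil, with the same OFF estimates. DHT 2 was the lowest DHT library in both, and in the 12-base pair oil 3 lay just under it. A set of exons from that boundary to 90951374 was included at 33.5, 18.3 and 21.1% in DHT and listed at 0 in the 3 oil libraries (limma adjusted p = 0.887).

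Kif1b had an exon of 27 bases at chr4:149195473-149195499 (minus strand), and this was also its pair of highest level. The ON form was 0.0370, 0.130 and 0.129 FPKM in DHT and 21.3, 24.5 and 0.479 in oil, and percent ON was 0.104, 0.258 and 0.287 against 34.6, 43.8 and 1.60. Oil 1 and oil 2 stood far above the other 4 libraries, and oil 3 was nearer to the DHT libraries than to them (log2 ratio change −4.13, SE 1.22, limma adjusted p = 0.914). An intron of Kifc2 of 162 bases at chr15:76662672-76662833 was listed as retained at 5.27, 4.73 and 4.51 FPKM in DHT and 4.33, 0.299 and 1.21 in oil, and its spliced form at 12.3 FPKM in oil 1 and 0 elsewhere. Those 0 values hold for these ends only. Another pair with the same start, chr15:76662672-76662782, had the same retained estimates and a spliced form of 20.2 to 36.0 FPKM in every library. Its percent ON was 12.8, 14.6 and 13.1 in DHT and 13.4, 1.45 and 4.89 in oil.

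**Figure D4:**
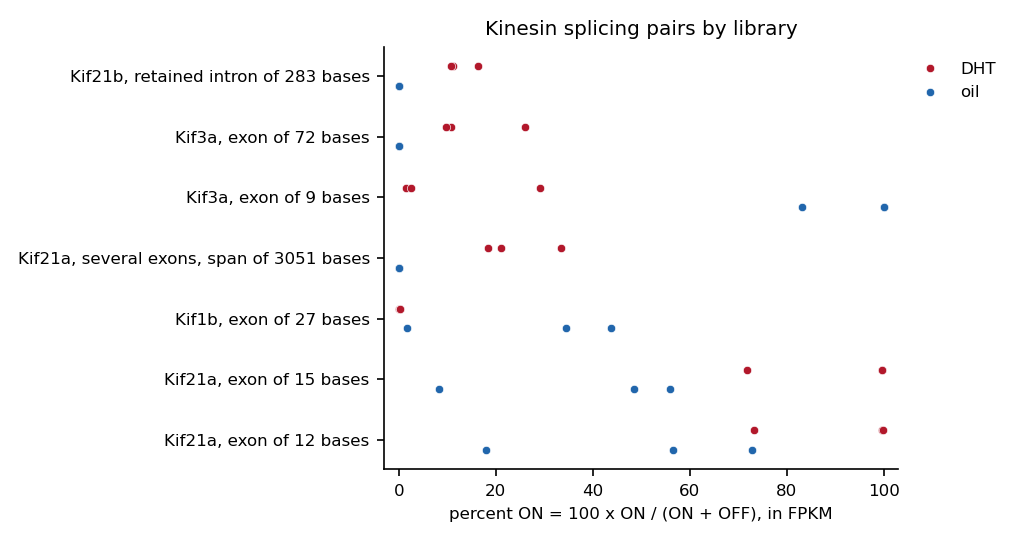
Percent ON in each library (red for DHT, blue for oil) for the 7 kinesin splicing pairs with an unadjusted p under 0.05 and groups that did not overlap. The retained Kif21b intron and the 72-base Kif3a exon are at 0 in all oil libraries, and in the 27-base Kif1b exon oil 1 and oil 2 lie at 34.6 and 43.8 while all others lie at 1.60 or lower.

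The pairs of highest level in the other abundant members were mixed in how far they varied. Kif5a included its set of exons at chr10:127238745-127248103 at 99.9964% or more in every library, and the Kifc2 exon of 139 bases at chr15:76661480-76661618 was included alike. The 27-base exon of Kif5c at chr2:49728542-49728568 was nearly always left out, with percent ON of 0.0748 to 0.153. The Kif1a exon of 279 bases at chr1:93051403-93051681 was included at 3.04, 0.0997 and 0.490% in DHT and 0.0447, 0.110 and 4.36% in oil. The leading pair of the locus assigned to Kif17 was an exon of 78 bases at chr4:138253612-138253689. That exon lies before the RefSeq bounds of Kif17, and whether it belongs to the gene was not tested. It had percent ON of 95.1, 95.7 and 0 in DHT and 70.6, 37.3 and 96.4 in oil. DHT 3 was at 0 there with 10.04 FPKM in the OFF form.

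Circles of kinesins were few beside the linear level of their genes. The 6 libraries held 43512 to 55325 back-splice junction reads, of which 29 to 49 per library came from kinesins. Per M (mega) junction reads this was 802 ± 159 in DHT and 721 ± 85.2 in oil (SD, n = 3, exact two-sided permutation p = 0.6). Circles listed per library numbered 11, 11 and 6 in DHT and 9, 8 and 7 in oil. Each list starts at 2 reads, so an unlisted circle is counted as 0 and may hold 1 read.

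Kif16b stood out among kinesin hosts by reads, with 8 circles and 118 reads, rank 492 of 3766 hosts, at a mean gene value of only 1.67 FPKM. The gene spans 283 kb. Its reads were 20, 25 and 21 in DHT and 16, 9 and 27 in oil, with the groups overlapping through oil 3 (edgeR log2 fold change 0.21, SE 0.42, adjusted p = 0.999). Kif1b, with a mean of 49.99 FPKM, gave 7 circles and 39 reads, at 7, 6 and 0 in DHT and 11, 10 and 5 in oil (edgeR log2 fold change −1.13, SE 0.92, adjusted p = 0.999). These were the 2 members tested as hosts, and the tests called 0.0584% of all hosts.

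The other 10 hosts had 2 to 16 reads each over the 6 libraries, led by Kif21a (16), Kif6 (8), Kif27 and Kif3a (6 each). Kif6 and Kif27 hosted circles although their gene values averaged 0.462 and 0.0196 FPKM. By contrast Kif5a at 162 FPKM and Kifc2, Kif17 and Kif5b gave no listed circle, and Kif1a at 116 FPKM gave 5 reads. Both Kif1a circles were listed on the plus strand, opposite to the gene. Among tested kinesins 10 of 20 hosted a circle, against 28.7% of all tested genes, and of those with a mean of at least 10 FPKM 6 of 10 did, against 40.0%.

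**Figure D5:**
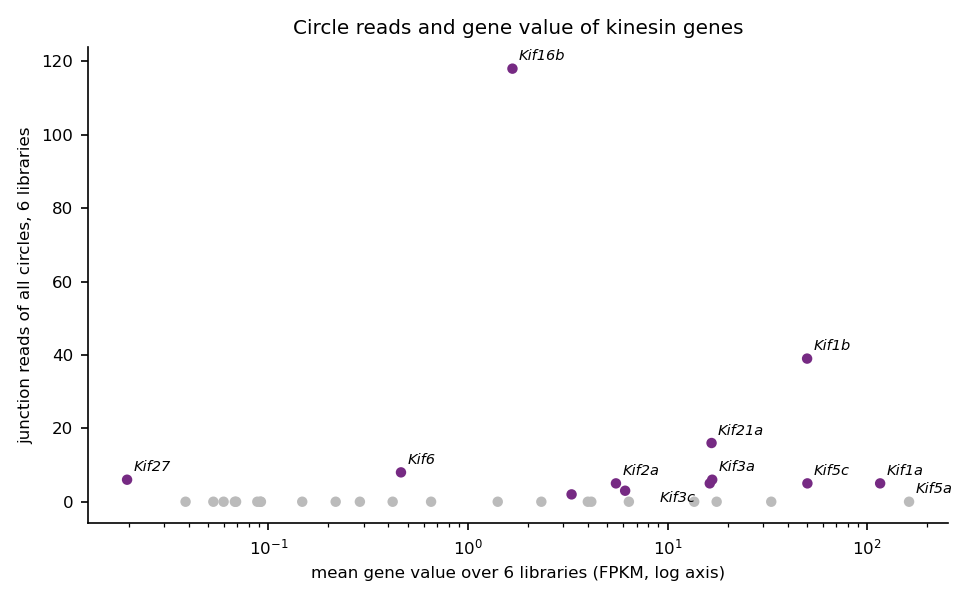
Junction reads of all circles of a kinesin gene, summed over the 6 libraries, against its mean gene value in FPKM on a log axis (purple for hosts, grey for genes with no listed circle). Kif16b lies highest, with 118 reads at 1.67 FPKM, while Kif5a at 162 FPKM has none.

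One circle of Kif16b was the kinesin circle listed in all 6 libraries. No member circle reached 60 reads, so it and the next are described because of the reads seen. It spans 1469 bases of the genome at chr2:142739523-142740991 (minus strand), and both its ends lie on exon boundaries of the assembled events. It had 4, 13 and 13 junction reads in DHT and 5, 7 and 7 in oil, beside 78, 52 and 50 linear reads in DHT and 71, 57 and 52 in oil. DHT 2 and DHT 3 were highest, DHT 1 lowest, and the groups overlapped.

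As a share of circular and linear reads this was 4.88% (Wilson 95% interval 1.91 to 11.9), 20% (12.1 to 31.3) and 20.6% (12.5 to 32.2) in DHT. In oil it was 6.58% (2.84 to 14.5), 10.9% (5.40 to 20.9) and 11.9% (5.87 to 22.5). These intervals cover counting error only, and those of the oil libraries overlap those of every DHT library. The median over libraries was 11.4%, above 76.2% of the 1581 circles listed everywhere, whose median was 4.90%.

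Between groups this circle had a log2 fold change of 0.55 (SE 0.60, edgeR adjusted p = 0.996), where 0.0% of 2524 tested circles were called by edgeR (79 with an unadjusted p under 0.05) and 0 by DESeq2 (73). Its linear reads had −0.08 (edgeR, 0.886% of 1581 called), and its ratio of circular to linear reads 0.49 (SE 0.57, limma adjusted p = 0.941, 0 of 1581 called and 77 with an unadjusted p under 0.05). Without DHT 1 that ratio change was 1.22. Over all 2524 tested circles, the test recovered 0 of 67 simulated 2-fold and 7 of 66 simulated 3-fold changes.

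A second Kif16b circle, whose ends lie 28464 bases apart in the genome at chr2:142834077-142862540, had 4, 6 and 5 reads in DHT and 8, 0 and 9 in oil (edgeR log2 fold change −0.29, SE 0.96, adjusted p = 0.996). The length of the circular RNA itself is not given by these data. Oil held both the highest libraries and the library with none. Another, chr2:142834077-142857427, shared its lower end and had 19 reads in 4 libraries. In all, 3 of the 8 Kif16b circles had their lower end at 142834077, which is the downstream end on the minus strand. In contrast the leading Kif1b circles, chr4:149206718-149222364 and chr4:149245338-149253751, had 14 reads each beside 2587 to 3739 linear reads where listed, a circular share of 0.0802% to 0.154%.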

How the data were processed

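The members and the gene lists were chosen with earlier results of these data known. The authors deposited back-splice junction counts and linear read counts per circRNA, listing circles of at least 2 reads, with a whole-number score in which junction reads are scaled by mapped reads, as the labels' protocols describe it. That score served only to derive mapped reads, 143 to 177 M per library. The authors deposited FPKM per transcript event (315379 starts, ends and splicing choices of assembled loci), per the file headers. The submitters' processing notes name bcl2fastq 2.17.1.14, cutadapt, HISAT2 2.0.1, BWA and build mm9. The circRNA caller, the assembler and any use of strand were not given in the sources used here. Of 11377 circles with a host in the RefSeq table, 99.5% (31 of 31 for kinesins) lay inside that gene's GRCm38 bounds, so coordinates are given as GRCm38. Reads of overlapping, antisense or near-identical genes cannot be told apart.

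A gene value was the larger of first-exon and last-exon sums per library. The log2 values (pseudocount 0.5) of genes averaging 0.5 FPKM or more went into limma 3.58.1 (R 4.3.3) with a trend. Fold changes on that scale understate those of low genes. Log2 ratios with the same pseudocount went into limma without a trend. These were the ratios of pairs averaging 1 FPKM or more in ON + OFF, and of circular to linear reads. circRNAs and hosts of at least 20 reads, and linear reads of the 1581 circles listed in all 6 libraries, went as counts into edgeR 4.0.16 (TMM, quasi-likelihood test) and, as an alternative, DESeq2 1.42.0. All p-values were adjusted by Benjamini-Hochberg over the whole table (threshold 0.05). On simulated data with 200 changed features, limma recovered 16 of 67 genes at 1.5-fold, 39 of 67 at 2-fold and 55 of 66 at 3-fold, with 3 false calls among 113.

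Named were up to 3 members of highest level per family, every member or pair with an unadjusted p under 0.05, members whose groups did not overlap, the leading pair of the 6 highest members, and of the other lists the 3 highest genes and those with an unadjusted p under 0.05. Circles were named after their reads were seen, since none reached 60 reads. Promoters came from RefSeq (GRCm38.p6), and both promoters and motifs are a description. Proteins and circle sequences were not used here.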

Additional observations from a re-analysis of the deposited data

How the results depend on the processing

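No paired analysis was possible because the labels give the groups no shared replicate numbers. No kinesin gene, pair, circle or host passed the adjusted threshold under any setting run. The number of all genes called was 2, and 1 at a pseudocount of 0.1 or with a mean of at least 2 FPKM, and 0 by first-exon or by last-exon sums. Kinesin genes with an unadjusted p under 0.05 numbered 4, and 2 with libraries centred, 1 by first-exon sums and 1 by last-exon sums. All were higher in DHT. In the same order, the genes with such a p in that direction numbered 658 of 11368, 359 of 11368, 649 of 11013 and 520 of 8154. All pairs called numbered 8, and 5 with a mean ON + OFF of at least 0.2 FPKM. All circRNAs called numbered 0, and 5 with no filter on reads, hosts 1, and 0 by DESeq2, 0 with its size factors and 3 with no filter, and linear counts 14, and 22 by DESeq2. Causes were not tested.

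Leaving out 1 library at a time gave 0 to 4 genes, 1 to 7 kinesin genes with an unadjusted p under 0.05, 0 pairs, 8 to 18 kinesin pairs with an unadjusted p under 0.05, 0 to 1 circRNAs, 0 to 1 hosts, 5 to 19 linear counts and 0 to 1 ratios called. In these runs an unadjusted p under 0.05 was reached by 510 to 703 of all 11368 genes in the higher direction, the direction of the kinesin genes. It was reached by 1394 to 1642 of all 30110 pairs in either direction.

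Some directions turned, in values near 0 and in pairs and circles that varied widely between libraries. The log2 fold change of Kif26b was −0.046 with libraries centred and −0.074 by last-exon sums, that of Kif9 −0.0076 at a pseudocount of 0.1 and −0.054 centred, and that of Kif1b 0.070 by first-exon sums. The leading Kif1a pair was at −0.044 at a pseudocount of 1. The ratio of summed kinesin gene values, DHT to oil, was 1.08 as deposited and 0.994 divided by the library's sum. With 1 library left out, log2 fold changes that turned ran from −0.0060 to 0.18 for Kif3a, −0.11 to 0.011 for Kif2a, −0.066 to 0.20 for Kif21a, −0.090 to 0.12 for Kif26b, −0.049 to 0.37 for Kifc3, −0.22 to 0.18 for Kif9, −0.34 to 0.046 for Kif1b and −0.10 to 0.12 for Kif5a. They ran from −0.73 to 1.19 for the leading Kif1a pair, −1.86 to 2.14 for that of Kif17 and −0.10 to 0.12 for that of Kif5a. For Kif16b they ran from −0.85 to 0.29 in the second circle, −0.089 to 0.77 in its host sum and −0.23 to 0.028 in linear reads, and the ratio of kinesin circle reads ran from 0.987 to 1.19. Depth is a limit for the circles, of which kinesins held 29 to 49 junction reads per library.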
